A study of Homo sapiens with 4 samples.

Results

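ATF6 and its relatives of the CREB3 family are transcription factors that are made as membrane proteins of the endoplasmic reticulum (ER). Around the start sites of 8 genes of this system, ATF6, ATF6B, CREB3, CREB3L1, CREB3L2, CREB3L3, CREB3L4 and MBTPS1, the accessible chromatin of HCT116 cells was described from ATAC-seq peak lists. A listed peak belonged to a gene when its midpoint lay within 20 kb of the start site on the hg19 build, and to the promoter when it lay within 2 kb. Peaks of the 4 libraries that shared at least 1 bp were joined into regions, which gave 38 regions near the 8 genes out of 78788 in all. Of these 38 regions, 11 lay at promoters. HCT116 is a human colorectal cancer cell line, here of wild-type genotype. Cells of 2 libraries had been kept for 6 h in 0.5 µg/ml tunicamycin, which blocks the first step of N-glycosylation and so loads the ER with unfolded glycoproteins. Cells of 2 further libraries had been kept for 6 h in 0.1% DMSO, the solvent. Each library was made from 50000 cells, and the series calls the libraries of a group biological replicates.

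In unstressed cells ATF6 is held in the ER membrane by its transmembrane segment. When unfolded proteins accumulate, ATF6 travels to the Golgi, where the site-1 protease encoded by MBTPS1 cuts its luminal part and a second protease then releases the cytosolic bZIP part, which enters the nucleus and activates chaperone genes. The CREB3 family members are built and cut in a similar way, and differ in the tissues and cargoes they serve. Peaks at the genes themselves show how open their start sites were and do not measure the cutting of the proteins.

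In short, the data showed open start sites at MBTPS1, CREB3L3, CREB3, CREB3L2 and CREB3L4 in all 4 libraries. ATF6 and CREB3L1 had no start-site peak common to the libraries. No peak at all was listed for ATF6B, which lay in a stretch of about 5 Mb without any peak. None of the 20 regions near these genes that were listed in all 4 libraries passed the test for a change with tunicamycin. Of all such regions in the series, 0.0346% were called higher and 0.0173% lower in rank, and 0% in width. Both tunicamycin libraries and no DMSO library had a peak at 2 regions of middling rank, 1 near MBTPS1 and 1 near CREB3L3. Such regions made up 5.26% of the 38, beside 3.65% of all regions.

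The sequences before the starts are shown for the 3 genes whose start-site peaks ranked highest by q-value (MBTPS1, CREB3L3 and CREB3). They are also shown for CREB3L2, whose peak gave the smallest p-value for a change with tunicamycin, and for ATF6, whose start carried no peak. Each is the run of 250 bases before a RefSeq start, on the strand of the gene. Capitals mark matches, on either strand, to CCAAT and CCACG, the parts of the ER stress response element, to GACGTGG, the core of the ATF6 binding site, and to TGACG, the core of the cyclic AMP response element TGACGTCA.
MBTPS1: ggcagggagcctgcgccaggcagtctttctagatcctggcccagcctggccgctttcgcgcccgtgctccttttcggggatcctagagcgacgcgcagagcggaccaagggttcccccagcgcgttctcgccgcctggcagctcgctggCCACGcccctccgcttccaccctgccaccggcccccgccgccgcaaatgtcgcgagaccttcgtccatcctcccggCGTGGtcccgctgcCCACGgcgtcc
CREB3L3: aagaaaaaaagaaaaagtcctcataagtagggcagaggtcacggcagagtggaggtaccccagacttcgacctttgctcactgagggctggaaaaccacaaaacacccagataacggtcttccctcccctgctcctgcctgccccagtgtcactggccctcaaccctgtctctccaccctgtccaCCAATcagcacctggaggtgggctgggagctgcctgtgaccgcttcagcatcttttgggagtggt
CREB3: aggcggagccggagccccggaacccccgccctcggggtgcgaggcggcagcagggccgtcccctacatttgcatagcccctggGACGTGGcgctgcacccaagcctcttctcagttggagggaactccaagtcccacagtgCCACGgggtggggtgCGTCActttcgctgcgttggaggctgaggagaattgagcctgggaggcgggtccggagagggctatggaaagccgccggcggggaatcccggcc
CREB3L2: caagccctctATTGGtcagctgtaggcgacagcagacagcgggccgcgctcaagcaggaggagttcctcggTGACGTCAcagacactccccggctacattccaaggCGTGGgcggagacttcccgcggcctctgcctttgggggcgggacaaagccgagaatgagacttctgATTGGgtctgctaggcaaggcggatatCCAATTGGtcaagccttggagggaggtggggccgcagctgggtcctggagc
ATF6: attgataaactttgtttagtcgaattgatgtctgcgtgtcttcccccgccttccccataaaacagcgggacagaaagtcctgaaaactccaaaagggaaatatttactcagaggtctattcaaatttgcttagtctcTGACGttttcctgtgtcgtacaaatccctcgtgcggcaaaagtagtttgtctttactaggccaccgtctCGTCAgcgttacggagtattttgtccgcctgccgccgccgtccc

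These runs are RefSeq sequence on the GRCh38.p14 build, at chr16:84116943-84117192 on the minus strand for MBTPS1, chr19:4153381-4153630 on the plus strand for CREB3L3, chr9:35732416-35732665 on the plus strand for CREB3, chr7:138002087-138002336 on the minus strand for CREB3L2 and chr1:161766070-161766319 on the plus strand for ATF6. All 8 genes had an entry in the table, and the RefSeq starts were not placed on hg19, the build of the peaks. The CREB3L1 entry starts 17497 bp and the CREB3L4 entry 763 bp inside the RefSeq gene, so the bases before the starts used here may not have been searched for these 2 genes. The same may hold for CREB3, whose run ends at 35732665 on GRCh38 while the start used here is 35732317 on hg19. For no gene was the distance between the RefSeq start and the start used here measured. Distances of matches are therefore counted from the RefSeq start. The whole element TGACGTCA stood in the CREB3L2 run, its first base 179 bases before the RefSeq start, and in 1.65% of all 35116 runs of the same length. GACGTGG stood in the CREB3 run, 167 bases before the RefSeq start, and in 2.62% of all runs. CCACG, which overlaps GACGTGG on the opposite strand, matched 3 times in the MBTPS1 run and stood in 33.5% of all runs. The full ER stress response element, CCAAT and CCACG with 9 bases of any kind between them, was in none of the runs listed for the 8 genes and in 0.0740% of all runs. Its second form, ATTGG and CCACG with 1 base between them, was in none of the 8 and in 0.0513% of all. Both strands were searched. The MBTPS1 run was rich in CpG, with 29 CpG pairs, and the CREB3 run held 20, while the CREB3L3 run held 4 and the median over all runs was 11. Such matches describe the letters and are not binding sites.

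The libraries held 58467 and 62526 peaks after tunicamycin and 56581 and 56566 after DMSO. No read totals were used here, and the median summit carried 15 or 16 reads. These summit reads were recovered from the fold and p-value of each peak, which are the authors' own values. The 8 windows held 28 and 31 peaks in the tunicamycin libraries, against 27 and 26 in the DMSO libraries (29.5 ± 2.12 and 26.5 ± 0.707, SD, n = 2 each). The counts did not overlap between the groups, and neither did the lengths of the whole lists. The exact permutation test gave p = 0.333 (two-sided), and 2 libraries against 2 allow no smaller value, so it could not decide. With lists of equal length the windows held 27 and 30 peaks after tunicamycin and 27 and 26 after DMSO (two-sided exact permutation p = 0.667). With windows of 10 kb the difference of the means was 0, and without tunicamycin replicate 2 it was 1.5. The promoters held 9 and 9 peaks after tunicamycin and 9 and 8 after DMSO (two-sided exact permutation p = 1.0). In no library was a peak number missing among the peaks of a window.

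**Figure D1:**
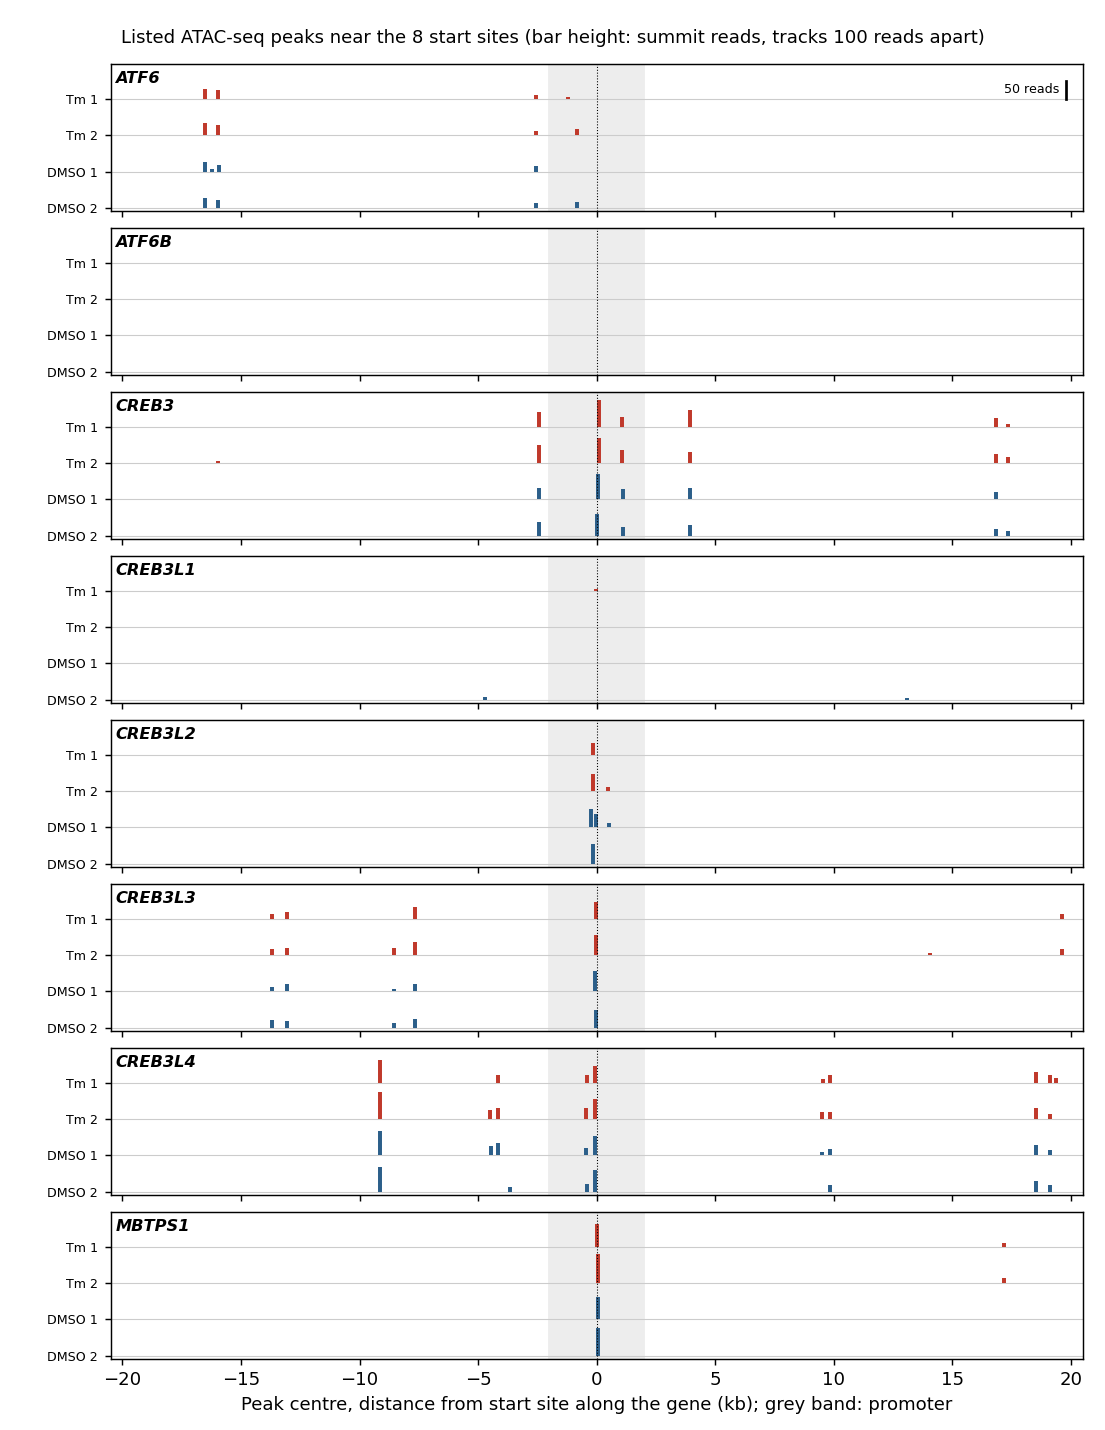
Listed peaks within 20 kb of the start sites of the 8 genes, in 2 tunicamycin (Tm, red) and 2 DMSO (blue) libraries. Each bar stands at the centre of a peak, at its distance from the start along the gene in kb, and its height is the number of reads at the summit. The windows hold 28 and 31 peaks after tunicamycin and 27 and 26 after DMSO, and the ATF6B panel is empty.

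Of the 38 regions, 20 (52.6%) had a peak in all 4 libraries, beside 51.3% of all regions in the series. Such regions are called common here. The 20 comprised 7 at promoters and 13 further away. A further 4 regions were listed in 3 libraries, 3 in 1 library of each group and 9 in a single library. The 2 regions listed only in both tunicamycin libraries made up 5.26% of the 38, beside 3.65% of all regions. No region was listed only in both DMSO libraries, beside 1.86% of all regions. These shares were close to those of the whole series, and with only 38 regions each single region weighs on a share.

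RefSeq places further protein-coding genes within 20 kb of some of these starts (GRCh38.p14). These are DUSP12 for ATF6, TNXB and FKBPL for ATF6B, TLN1, GBA2 and RGP1 for CREB3, CRTC2, SLC39A1, JTB and RAB13 for CREB3L4, and HSDL1 for MBTPS1. CREB3L1, CREB3L2 and CREB3L3 had none. Regions away from a promoter are therefore named by their distance along the gene, with minus for before the start, and are not assigned to a gene. The starts of these neighbours were not placed on hg19. Whether a promoter region of a listed gene also holds the start of a neighbour was therefore not tested, and its values may belong to both.

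ATF6, the sensor that gives the pathway its name, had no peak at its start in any library. The start site lies on chromosome 1 at 161736034. After the start, the nearest peak lay 26.6 kb into the gene in all 4 libraries. Before the start, a region at 161735136 to 161735261, 836 bp away, was listed with 18 reads in tunicamycin replicate 2 and with 16 reads in DMSO replicate 2, and was in neither of the other libraries. Its peaks were 126 bp wide in the tunicamycin library and 122 bp in the DMSO library. They stood near the middle of their lists, at percentile 55.6 after tunicamycin and 55.9 after DMSO, where the percentile is the rank of the peak by the authors' q-value within its own list. It was thus listed in 1 library of each group. A weaker peak 1230 bp before the start, with 5 reads, was listed in tunicamycin replicate 1 alone.

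A common region lay 2.6 kb before the ATF6 start, at 161733398 to 161733547. Its summits had 11 and 12 reads after tunicamycin and 15 and 13 after DMSO. To compare strengths between libraries, the 40447 common regions of the whole series were ranked within each library by the q-value, and the percentile among them is used from here on. The region stood at percentiles 13.5 and 10.7 after tunicamycin and 37.3 and 25.2 after DMSO, so that both tunicamycin libraries lay below both DMSO libraries. On the scale of normal scores of these ranks the difference was -0.68 ± 0.47 (SE). Its p-value was 0.153 before and 0.824 after adjustment by limma over all common regions. The peak began at the same base in all 4 libraries, which held for 0.718% of the 38731 common regions with 1 peak per library.

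The strongest regions of the ATF6 window lay 16.5 and 16 kb before its start. The first, at 161719387 to 161719644, had 26 and 33 reads after tunicamycin and 26 and 26 after DMSO, and the groups overlapped in rank (limma adjusted p = 0.988). The second, at 161719978 to 161720183, had 25 and 29 reads after tunicamycin and 19 and 22 after DMSO. It ranked above the DMSO libraries in both tunicamycin libraries, at percentiles 64.0 and 66.0 against 46.0 and 54.1, with a score difference of 0.38 ± 0.35 (SE, limma adjusted p = 0.879). DUSP12, a phosphatase gene, is the neighbour of ATF6.

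ATF6B encodes the paralog of ATF6, which is cut in the same way and is known as the weaker activator. The start site on chromosome 6 at 32096030 lay in a long stretch without a listed peak. The last peak before this stretch on the chromosome ended at 28457357 and 28457334 in the tunicamycin libraries and at 28443689 and 28457291 in the DMSO libraries. The next peak began at 33479968 and 33458081 after tunicamycin and at 33460033 and 33458087 after DMSO. The stretch was thus 5.02 and 5.0 Mb long after tunicamycin and 5.02 and 5.0 Mb after DMSO, where the median distance between neighbouring peaks was 14.1 to 15.6 kb. Counting this one, each library had 26 to 28 stretches at least as long. The numbers in the deposited peak names were consecutive across the stretch in every library, so none was missing there. The stretch holds the gene-dense class III part of the major histocompatibility complex, in which ATF6B lies. The count of 0 peaks at ATF6B is common to the whole stretch and gives no level for ATF6B itself, and its cause was not tested.

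**Figure D2:**
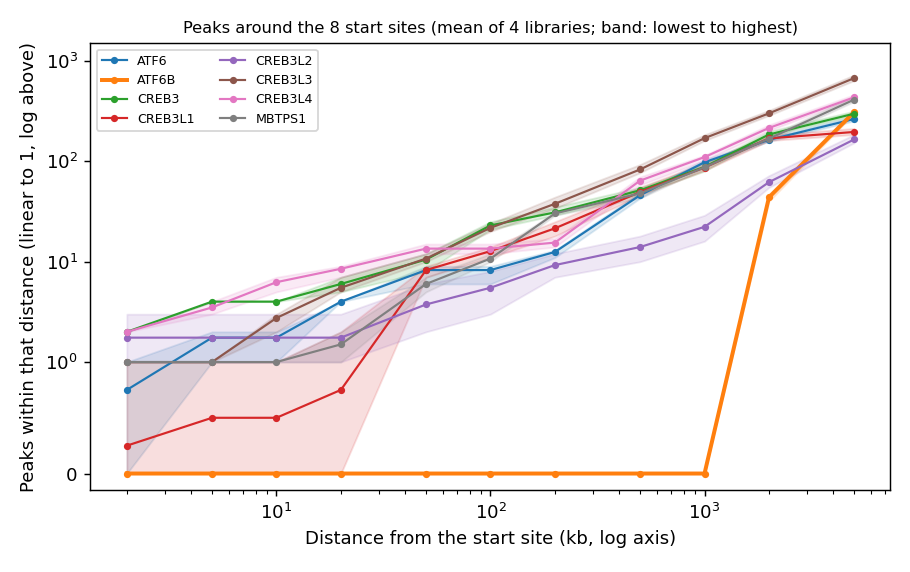
Number of listed peaks (vertical axis, linear up to 1 and logarithmic above) within a given distance of each start site (horizontal axis, kb, logarithmic). Lines are means of the 4 libraries and bands run from the lowest to the highest library. ATF6B stays at 0 up to 1000 kb, while CREB3L1, with 0 to 2 peaks within 20 kb, has 81 to 97 within 1000 kb.

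CREB3, also called Luman, is a ubiquitous member of the family that has been linked to the Golgi stress response. Its start on chromosome 9 at 35732317 lay inside the widest of the promoter peaks described here, a region from 35732032 to 35732683. The summit lay 192 and 207 bp after the start with tunicamycin and 200 and 193 bp after it with DMSO. It carried 73 and 70 reads after tunicamycin and 69 and 59 after DMSO. The authors' fold over the local background within the library was 18.0 and 16.2 after tunicamycin and 17.6 and 15.5 after DMSO. The region stood at percentiles 97.8 and 94.6 after tunicamycin and 97.5 and 93.6 after DMSO, and the replicates of a group differed by more than the groups. The score difference was 0.07 ± 0.26 (SE, limma adjusted p = 0.984).

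The CREB3 start-site peak was narrower in both tunicamycin libraries. It spanned 545 and 550 bp after tunicamycin and 620 and 628 bp after DMSO, so the groups did not overlap. Both tunicamycin widths were below both DMSO widths in 13.6% of all common regions. Relative to the median width of each library the difference was -0.22 ± 0.08 (log2, SE), a ratio of 0.861. Its p-value was 0.0392 before and 0.803 after adjustment by limma, so it did not pass the test. It was the only one of the 20 common regions with an unadjusted p under 0.05 for width, beside 6.13% of all 40447.

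A second CREB3 promoter region, 1.1 kb after the start at 35733315 to 35733481, was weaker. It had 26 and 35 reads after tunicamycin and 28 and 25 after DMSO, and stood at percentiles 23.5 and 42.1 after tunicamycin and 35.9 and 25.7 after DMSO. Its peaks were 167 and 154 bp wide after tunicamycin and 121 and 131 bp after DMSO, the opposite order to the start-site peak (limma adjusted p = 0.843 for width). The CREB3 region 2.4 kb before the start, at 35729832 to 35729948, was the strongest outside the promoter, with 42 and 50 reads after tunicamycin and 32 and 37 after DMSO. Its percentiles of 74.5 and 78.9 after tunicamycin lay above those of 53.6 and 67.6 after DMSO. The score difference was 0.46 ± 0.32 (SE, limma adjusted p = 0.830), and 0.27 without DMSO replicate 1. The region 3.9 kb after the start stood apart in tunicamycin replicate 1, at percentile 79.0, against 34.1 in tunicamycin replicate 2 and 52.5 and 48.0 after DMSO.

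CREB3L1, known as OASIS, serves the secretion of collagen by bone-forming cells. Its window held single weak peaks only. The start on chromosome 11 at 46299189 had a peak of 103 bp with 6 reads in tunicamycin replicate 1, at 46299116 to 46299218 and at percentile 7.34 of its list, and none in the other 3 libraries. DMSO replicate 2 listed a peak of 7 reads 4.7 kb before the start and one of 6 reads 13.1 kb after it. Tunicamycin replicate 2 and DMSO replicate 1 listed none in the window. Within 1000 kb of the start the libraries listed 87 and 97 peaks after tunicamycin and 81 and 82 after DMSO, so this sparse window, unlike the window of ATF6B, stood in a region where peaks were listed. A library without a peak may still have had reads there, and the weakest listed summits had 3 reads.

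CREB3L2, or BBF2H7, drives the secretory machinery of cartilage cells and has been found to act on the coat protein gene SEC23A. Its start on chromosome 7 at 137686847 carried the promoter region whose rank differed most between the groups. The region, at 137686813 to 137687201, covered the bases just before the start. Counted from the start, its summit lay at -220 and -229 bp after tunicamycin and at -230 and -215 bp after DMSO. The summit had 33 and 46 reads after tunicamycin and 51 and 54 after DMSO. The authors' fold over the local background was 17.5 and 21.1 after tunicamycin and 24.3 and 24.2 after DMSO. The DMSO libraries were close to each other and the tunicamycin libraries were not.

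Among the common regions the CREB3L2 start-site region stood at percentiles 81.5 and 90.2 after tunicamycin, against 97.0 and 97.0 after DMSO (85.9 ± 6.19 and 97.0 ± 0.00699, SD, n = 2 each). The score difference was -0.78 ± 0.27 (SE). Its p-value was 0.00485 before and 0.433 after adjustment by limma over 40447 regions, so it did not pass the test. It was the only one of the 20 common regions with an unadjusted p under 0.05 for rank (5%), beside 7.33% of all common regions. Without tunicamycin replicate 1 the score difference was -0.57 (limma adjusted p = 0.909), and without tunicamycin replicate 2 it was -0.97 (limma adjusted p = 0.409). DMSO replicate 1 listed the region as 2 peaks of 312 bp in sum, where the other libraries listed 1 peak of 377, 377 and 383 bp. A weak region 0.5 kb after the start was listed in tunicamycin replicate 2, with 10 reads, and in DMSO replicate 1, with 12 reads.

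CREB3L3, or CREBH, is known as a factor of liver and small intestine that controls lipid and iron genes. In these colorectal cells its start, on chromosome 19 at 4153598, had one of the strongest and narrowest promoter peaks of the 8 genes. The region at 4153463 to 4153634 had 46 and 56 reads after tunicamycin and 57 and 48 after DMSO. The authors' fold over the local background was 29.2 and 33.9 after tunicamycin and 35.2 and 30.7 after DMSO. The peaks were only 149 and 148 bp wide after tunicamycin and 169 and 140 bp after DMSO. The region stood at percentiles 97.4 and 98.4 after tunicamycin and 99.3 and 98.0 after DMSO, so the groups overlapped, with a score difference of -0.22 ± 0.25 (SE, limma adjusted p = 0.916). It was -0.0031 without DMSO replicate 1 and -0.43 without DMSO replicate 2.

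The CREB3L3 window also held 3 common regions before the start. The one 7.7 kb before it, at 4145833 to 4146038, had 31 and 35 reads after tunicamycin and 21 and 25 after DMSO. It ranked above both DMSO libraries in both tunicamycin libraries, at percentiles 82.6 and 80.2 against 62.1 and 71.3, and its score difference of 0.46 ± 0.31 (SE) gave limma adjusted p = 0.817. The regions 13.7 and 13.1 kb before the start had 13 to 17 and 18 to 19 reads after tunicamycin, against 13 to 20 and 19 to 19 after DMSO.

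CREB3L4, or AIbZIP, is known from the prostate, where androgen raises it. Its start on chromosome 1 at 153940315 had 2 common promoter regions. The stronger, at 153940170 to 153940352, had its summit at -103 and -103 bp from the start after tunicamycin and at -85 and -76 bp after DMSO. It carried 45 and 55 reads after tunicamycin and 53 and 59 after DMSO. It stood at percentiles 85.7 and 89.0 after tunicamycin, below both DMSO values of 93.3 and 95.7, and the score difference was -0.46 ± 0.27 (SE, limma adjusted p = 0.761). The weaker region, 0.4 kb before the start, had 21 and 29 reads after tunicamycin and 21 and 21 after DMSO. The CREB3L4 window was the richest in regions, with 11, of which 6 were common. The strongest of these lay 9.1 kb before the start, at 153931003 to 153931360, with 62 and 74 reads after tunicamycin and 67 and 67 after DMSO, and 4 neighbouring protein-coding genes share this window.

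MBTPS1 encodes the site-1 protease that makes the first cut in ATF6 and the CREB3 proteins, and also cuts the sterol regulators SREBP. Its start on chromosome 16 at 84150511 had the promoter region with the highest mean percentile of the 8 genes, at 84150227 to 84150696. The summit, 48 to 67 bp after the start, carried 63 and 81 reads after tunicamycin and 62 and 75 after DMSO. The authors' fold over the local background was 24.2 and 29.1 after tunicamycin and 24.8 and 30.0 after DMSO. In every library this fold was below that of the CREB3L3 start. In each group replicate 2 was the higher, and the groups overlapped. The percentiles were 98.3 and 99.3 after tunicamycin and 98.5 and 99.5 after DMSO, with a score difference of -0.06 ± 0.24 (SE, limma adjusted p = 0.984). The peaks were 331 and 439 bp wide after tunicamycin and 466 and 427 bp after DMSO.

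**Figure D3:**
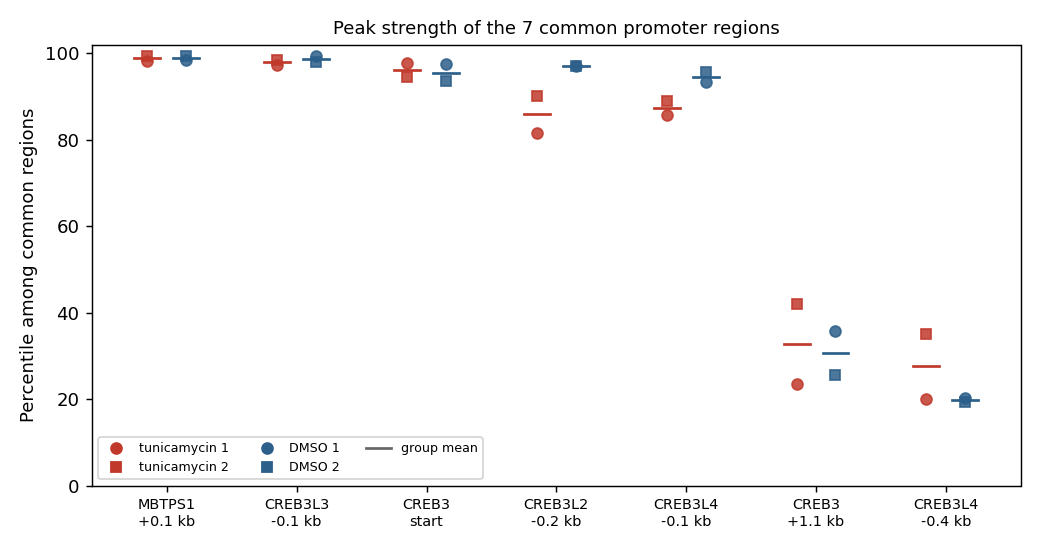
Percentile of the 7 common promoter regions among the 40447 common regions of the series, by library, with tunicamycin (red) left of DMSO (blue); circles are replicate 1, squares replicate 2 and lines group means. The regions at the starts of MBTPS1, CREB3L3 and CREB3 lie above 93 in all 4 libraries, and those of CREB3L2 and CREB3L4 are lower in both tunicamycin libraries, without passing the test.

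**Figure D4:**
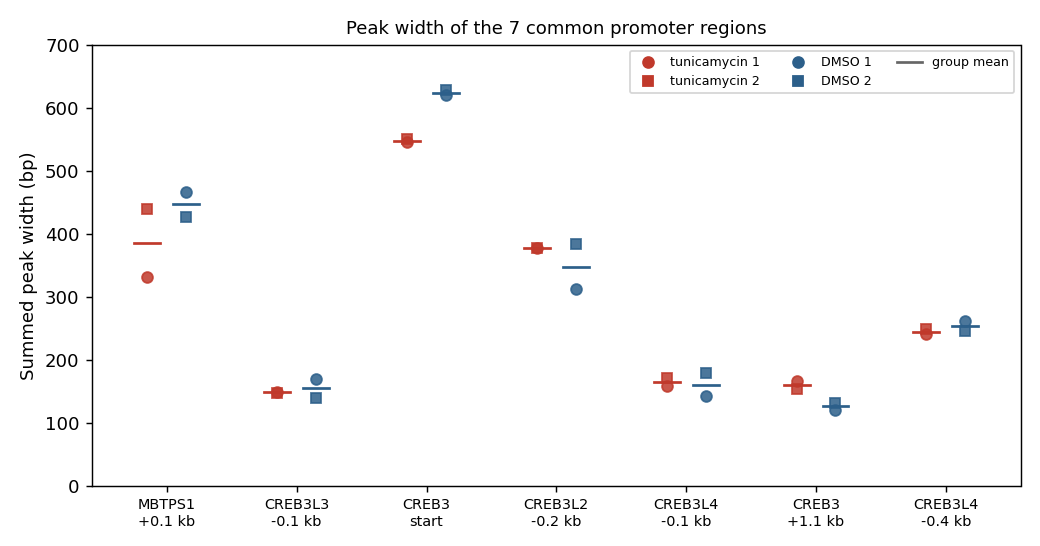
Summed width in bp of the peaks of the same 7 promoter regions, drawn in the same way. The CREB3 start-site peak spans 545 and 550 bp after tunicamycin and 620 and 628 bp after DMSO, and the CREB3L3 peak is under 170 bp in every library.

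By strength the start-site regions fell into an order that neighbours in it did not keep apart beyond the spread of the libraries. Over the 4 libraries the mean percentile was 98.9 for MBTPS1, 98.3 for CREB3L3, 95.9 for CREB3, 91.4 for CREB3L2 and 90.9 for CREB3L4. The closest pair was CREB3L2 and CREB3L4, 0.510 percentile points apart. These also were the start-site regions in which both tunicamycin libraries ranked below both DMSO libraries, an order found in 18.3% of all common regions. The secondary promoter regions of CREB3 and CREB3L4 followed at 31.8 and 23.7, and MBTPS1 and the secondary region of CREB3L4 were the pair furthest apart, by 75.2 points. The median of the 7 promoter regions was 91.4 and that of the 13 other common regions 53.4. The q-value that gives the rank depends on the height of the peak and on its local background, so the order is one of peak significance.

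Tunicamycin was accompanied by no called change at any of the 20 common regions. For rank, limma called 0 of 20 higher, beside 0.0346% of all common regions, and 0 of 20 lower, beside 0.0173%. For width it called 0 higher and 0 lower, beside 0% of all common regions either way. The smallest limma adjusted p among the 20 was 0.433 for rank and 0.803 for width. In 4 of the 20 the tunicamycin libraries both ranked above the DMSO libraries, beside 18% of all common regions, and in 4 they both ranked below, beside 18.3%. Both tunicamycin widths were above both DMSO widths in 3, beside 20%, and below in 5, beside 13.6%. The median score difference was -0.07 over the 20 regions, with 9 above and 11 below 0, beside 0.00044 over all common regions. The standard errors of 0.24 to 0.47 show that with 2 libraries a group only large shifts of rank could be called, so these counts do not show that the promoters were unaltered.

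**Figure D5:**
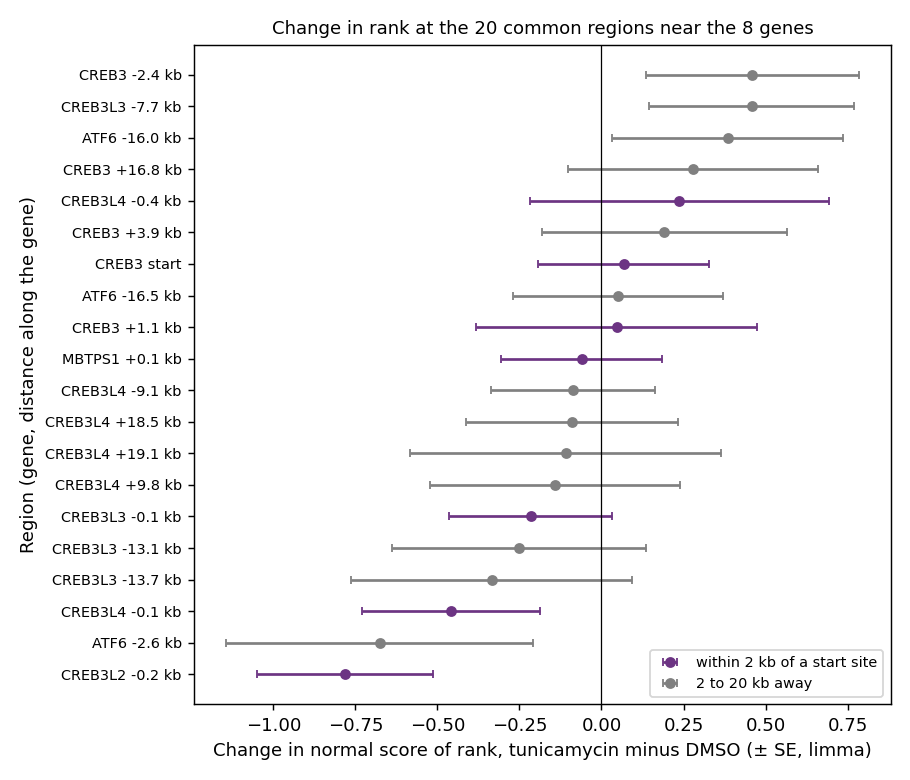
Change in the normal score of the rank, tunicamycin minus DMSO, with its standard error from limma, for the 20 common regions near the 8 genes; purple points lie within 2 kb of a start site. Points run from -0.78 at the CREB3L2 start to 0.46 at 2.4 kb before the CREB3 start and at 7.7 kb before the CREB3L3 start, and none passed the test after adjustment.

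The 2 regions that were listed only after tunicamycin lay far from the starts. The MBTPS1 region, at 84133249 to 84133424, was 17.2 kb after the start. RefSeq gives the gene a length of 63180 bp, so the region lies within the gene. Its summits had 11 and 14 reads, and its peaks were 174 and 173 bp wide, at percentiles 46.3 and 55.3 of the tunicamycin lists. The CREB3L3 region, at 4173140 to 4173270, was 19.6 kb after the start of a gene whose RefSeq length is 19424 bp, so it lies near the end of the gene. Its summits had 13 and 16 reads and its peaks were 116 and 117 bp wide, at percentiles 45.1 and 56.6. No peak was listed at either place in the DMSO libraries, which may still have had reads there.

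Both stood in the upper part of the 2878 regions listed only after tunicamycin in the whole series. Of these, 8.44% had a higher mean percentile than the MBTPS1 region and 8.37% a higher one than the CREB3L3 region. The median region listed only after tunicamycin stood at percentile 21.8. The MBTPS1 region was also wide for such regions, since 7.78% were wider, while 70.2% were wider than the CREB3L3 region. These percentiles and widths come from the same tunicamycin peaks that placed the regions in this class, so they are no support for a gain. Presence in a list gives no test for a single region with 2 libraries a group.

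The other 16 regions that were not common were spread over the libraries. Tunicamycin replicate 2, the longest list, shared in all 3 regions with 1 library of each group and in all 4 regions listed in 3 libraries. Single peaks came from tunicamycin replicate 1 (3), tunicamycin replicate 2 (2), DMSO replicate 1 (1) and DMSO replicate 2 (3), with 5 to 13 reads at the summit.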

How the data were processed

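ATAC-seq maps open chromatin with a transposase that cuts accessible DNA and inserts adapters. Per the submitters' processing notes the authors worked on hg19 with MACS2 2.2.7.1, Bowtie2 2.3.5.1, Picard 2.18.23, Trim Galore, deepTools and SAMtools. How these were set, and whether cut sites were shifted, is not given in the sources used here. Each library has its own deposited peak list. Per peak, the authors deposited a score, a whole number that follows the q-value. They also deposited a fold, which is the ratio of summit reads to background after 1 is added to both. The authors' p-value and q-value are deposited as −log10 values, and the summit position as an offset in bp. The deposited −log10 q-values began at 1.30 and the widths at 100 bp.

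Summit reads were recovered from the deposited fold and p-value as the whole number that matched the Poisson tail within 0.001, which existed for 100% of peaks. What the caller piled up is not known. A region was ranked by its best q-value per library. Normal scores of ranks, and log2 widths centred on each library's median, were compared over all 40447 common regions with limma 3.58.1 (R 4.3.3), trend prior and Benjamini-Hochberg adjustment at 0.05. Counts were compared by exact permutation (scipy 1.17.1, Python 3.11.15). The fits and the merging were tested on simulated data. Start sites were given with the gene list. The other genes of the pathway, among them MBTPS2, were not placed, because no hg19 annotation was used here, and the cell line was not checked by marker genes for the same reason. Members, lists and tests were chosen with earlier results of these data known. Named regions were those at promoters, those listed in 1 group only, those with unadjusted p under 0.05, and the strongest other region per gene. Others are described as ranges or were added after their values were seen. Replicate numbers are not stated to pair libraries. P-values measure only the spread between these libraries, and those from limma also draw, through the prior, on the spread of all common regions. At the CREB3L2 start the unadjusted limma p for rank was 0.00485 with the trend prior and 0.0416 without trend.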

Additional observations from a re-analysis of the deposited data

How the results depend on the processing

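With 2 libraries a group and summits of mostly under 60 reads, small shifts cannot be called. In every setting tried limma called 0 of the common regions near the 8 genes higher or lower, for rank and for width. The settings were −log10 q of at least 5 or 10, lists of equal length, a reciprocal overlap of 50%, peaks up to 250 bp apart merged, ranking by fold (rank), no median centring (width), no trend in the prior, the replicate number as a block, and the omission of each library. Unadjusted p was under 0.05 at 0 or 1 region for rank and at 0 to 3 for width. With the replicate block limma called 0 near the 8 genes and the smallest adjusted p for rank was 0.347, at the CREB3L2 start. Deviations of same-numbered libraries correlated at 0.011 for rank and 0.009 for width, so the number is not shown to pair them. The CREB3L2 score difference kept its sign in the 11 settings that gave one, from -0.97 to -0.57. With a reciprocal overlap of 50% the region was not common. Both tunicamycin libraries ranked below both DMSO libraries there, so leaving out a library could hardly turn the sign. The fits without trend and with the block kept the difference of -0.78 by design. The kept sign is therefore little support. The CREB3 width difference kept its sign in 12 settings, from -0.23 to -0.19, with the same limits, since its groups did not overlap either. Its unadjusted limma p was 0.0341 to 0.0382 with both q-value cut-offs, lists of equal length and the reciprocal overlap. It was 0.0538 without median centring, 0.0623 with merged peaks, 0.0742 with the replicate block and 0.1155 without trend. With a library left out, which leaves 1 library in a group, the width difference ran from -0.23 to -0.20. For those fits no p-value is given here, so the p-values listed do not cover every setting.

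The difference in promoter peaks, 0.5, was -0.5 with −log10 q of at least 5, with −log10 q of at least 10 and with lists of equal length. It was 0 with a promoter of 1 kb, and 0 to 1 with a library left out. The difference in peaks within the windows, 3, was 1.5 without tunicamycin replicate 2 and 4.5 without tunicamycin replicate 1. It was 2 with lists of equal length or −log10 q of at least 10, and 0 with windows of 10 kb, where 13 regions were common and 0 were listed only after tunicamycin, because both such regions lie beyond 10 kb. With a library left out, regions listed only after tunicamycin numbered 3 (without DMSO replicate 2) to 5 (without tunicamycin replicate 2), and those listed only after DMSO 0 to 3, because a group is then represented by 1 list.

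Small score differences of common regions changed sign without being called. The CREB3 start was at -0.0786 and the CREB3 region 1.1 kb after it at -0.0524 when ranked by fold, and the CREB3L4 region 0.4 kb before its start at -0.46 when merged with the stronger promoter region. With a library left out the CREB3 start ran from -0.15 to 0.28, the CREB3 region at 1.1 kb from -0.21 to 0.30, MBTPS1 from -0.25 to 0.13, and the ATF6 region at 16.5 kb from -0.0820 to 0.18.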
